A study of Mus musculus with 6 samples.

Results

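The genes described here are 8 neighbours on mouse chromosome 14 (build mm10), namely Elp3, Nuggc, Scara5, Pbk, Esco2, Ccdc25, Scara3 and Clu in order of gene start. They were taken by symbol from a table of 54532 named genes, and were selected on the measured counts of Scara5 and Scara3, scavenger receptor genes that both had much higher counts in cells edited at Gmppb than in unedited cells; the other 6 were added for lying between or beside them. All 8 were found in the table, and 7 of them passed the filter on low counts; Nuggc did not. Since the difference between the genotypes led to the choice of these genes, it is described below with its error but without a p-value. How many of them passed the threshold is given once, and nothing is read from it. Tests are given for the genes that flank the neighbourhood and for related genes elsewhere in the genome.

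The cells were C2C12, a mouse line of myoblasts, the cells that fuse into muscle fibres, with 3 wild-type libraries and 3 Gmppb-KO libraries. Gmppb encodes a subunit of the enzyme that makes GDP-mannose, the mannose donor of glycosylation. Wild-type cells had no treatment; Gmppb-KO cells were transfected with CRISPR/Cas9 plasmids against exons 1 and 5 of Gmppb, selected in puromycin at 4 µg per ml, diluted and expanded as monoclonal cells, and both kinds of cell grew for 2 days before RNA was taken. The labels do not state that the wild-type cells went through transfection, selection or cloning, or whether the Gmppb-KO libraries come from 1 clone or more, so the edit and the history of a clone cannot be told apart. The guides are shown because they define the edited group, each read on the plus strand of chromosome 9 with the 3 bases that follow it (the PAM) in capitals, at chr9:108049573-108049592 for exon 1 and chr9:108050465-108050484 for exon 5, from a match to the GENCODE M21 transcripts of Gmppb.
Exon 1 guide: gagcactccgaagccattggTGG
Exon 5 guide: agagccttccaagtatggtgTGG

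Scavenger receptors of class A are membrane proteins of the cell surface or of internal membranes that bind modified lipoproteins, proteins and other polyanionic ligands. Scara5 binds ferritin and takes it into the cell, and its RNA is known from stromal fibroblasts. Scara3 is a class A member described in human cells as induced by oxidative stress. The genes between and beside them have unrelated functions, so position is what the 8 genes share.

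Libraries held between 16011021 and 18566759 counts in named genes. The targeted gene, Gmppb, had 18.0, 20.9 and 23.9 CPM in the wild-type libraries and 20.6, 16.0 and 13.0 CPM in the Gmppb-KO libraries, where CPM is the count scaled to library size (trimmed mean of M values) and values are listed here and below in the order of replicates 1, 2 and 3. Its log2 fold change was -0.34 ± 0.26 (SE; edgeR adjusted p = 0.459). The level of Gmppb RNA therefore did not separate the genotypes. Against the labelled cell type, edgeR called 6 of 9 myoblast markers lower in Gmppb-KO libraries (adjusted p under 0.05), where it called 3.27% of all tested genes lower. Among them was Myod1, the transcription factor of myoblasts. Myod1 had a mean of 158 ± 5.75 CPM in wild-type libraries against 0.452 ± 0.118 CPM in Gmppb-KO (SD, n = 3 each, edgeR adjusted p = 9.82e-06). Myf5 went the other way, from 23.0 ± 8.86 to 57.1 ± 33.1 CPM with overlapping groups (edgeR adjusted p = 0.168). Des and Cdh15 were lower but not called, and kept means of 3166 and 275 CPM in Gmppb-KO libraries. Replicate 3 of each group differed from its fellows by gene length. In Gmppb-KO replicate 3 the log2 CPM exceeded the mean of Gmppb-KO replicates 1 and 2 by a median of 0.51 in 5783 genes of 4.5 kb and over and differed from it by a median of -0.59 in 2446 genes under 2 kb. The same medians for wild-type replicate 3 against wild-type replicates 1 and 2 were 0.25 and -0.45. No label calls the replicates separate cultures, so errors and p-values measure the spread between these libraries and that spread may be technical.

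The neighbourhood covered 451 kb, from 65530449 to 65981547 on chromosome 14. Its genes did not overlap one another or any other annotated gene, so that their reads could be told apart without strand. Elp3 and Nuggc lie head to head with 5.47 kb between their 5' ends, Esco2 and Ccdc25 head to head with 3.31 kb, and Scara3 and Clu head to head with 14.5 kb. Scara5 (65666403 to 65764826, plus strand) and Scara3 (65919394 to 65953935, minus strand) are separated by 155 kb that hold Pbk, Esco2 and Ccdc25. Of all windows of 50 bases in the longest transcript, those of Scara5, Scara3, Clu, Ccdc25, Elp3 and Nuggc had 0 matches in transcripts of other genes. Pbk shared 4.85% of its windows with the processed pseudogene Gm12387, which had 2 counts over all 6 libraries, and Esco2 shared 1.19% with transcripts of 130 genes.

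Scara5 RNA was close to absent in wild-type libraries and abundant in every Gmppb-KO library. Scara5 (ENSMUSG00000022032) had 3, 0 and 2 counts in the wild-type libraries and 481, 404 and 680 counts in the Gmppb-KO libraries. On the CPM scale this was 0.178, 0 and 0.117 against 26.1, 22.6 and 32.0, and the library with 0 counts allows up to 0.202 CPM by a limit of 3 counts. The lowest Gmppb-KO value was thus far above the highest wild-type value. The log2 fold change was 7.95 ± 0.57 (SE), the 10th highest of the 12786 genes tested. The ratio of pooled counts per total counts was 299 with an exact 95% binomial interval from 128 to 922, which covers counting error only. Because so few wild-type counts carry the ratio, leaving out wild-type replicate 1 gave a log2 fold change of 8.60 and leaving out wild-type replicate 2 gave 7.41. In bulk RNA, more cells with the RNA and more RNA per cell cannot be told apart.

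Scara3 (ENSMUSG00000034463) was detected in every library and was the most even of the 8 genes among Gmppb-KO replicates. It had 37, 41 and 46 counts in the wild-type libraries and 829, 808 and 987 counts in the Gmppb-KO libraries. These correspond to 2.20, 2.76 and 2.69 CPM and to 45.1, 45.2 and 46.5 CPM, with means of 2.55 ± 0.309 and 45.6 ± 0.790 CPM (SD, n = 3 each), a ratio of 17.9. The groups did not overlap, and the highest Gmppb-KO value was 1.03 times the lowest. The log2 fold change was 4.16 ± 0.24 (SE), the 73rd highest of all tested genes. Relative to wild-type libraries Scara5 therefore had the larger ratio, while Scara3 was the gene with a measurable level in both groups.

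Clu, which encodes the secreted chaperone clusterin and starts 14.5 kb from the 5' end of Scara3 on the other strand, was also higher in Gmppb-KO libraries, at a low level. Clu (ENSMUSG00000022037, 65968483 to 65981547) had 0, 0 and 8 counts in the wild-type libraries and 35, 29 and 23 counts in the Gmppb-KO libraries. In CPM the wild-type values were 0, 0 and 0.468 and the Gmppb-KO values 1.90, 1.62 and 1.08. The groups did not overlap, but all wild-type counts came from replicate 3. The log2 fold change was 3.20 ± 1.00 (SE), and 4.25 by limma voom. Against wild-type replicates 1 and 2 alone, with 0 counts together, Clu was at least 16.0-fold higher, computed against 3 counts over both libraries. The ratio of pooled counts over all libraries was 10.4, with a counting interval from 5.04 to 24.8.

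Between the scavenger receptor genes lie Pbk, a mitotic protein kinase also known as TOPK, Esco2, the acetyltransferase that acts on the cohesin subunit Smc3 when sister chromatids are joined, and Ccdc25, a membrane protein described in human cells as a sensor of extracellular DNA. Pbk (ENSMUSG00000022033, 65805837 to 65817822) had 56.7, 53.0 and 42.7 CPM in the wild-type libraries and 68.1, 83.6 and 85.5 CPM in the Gmppb-KO libraries. All Gmppb-KO values lay above all wild-type values, with a ratio of means of 1.56 and a log2 fold change of 0.64 ± 0.20 (SE). Pbk thus stands 139 kb from the 5' end of Scara5 with a difference far smaller than that of Scara5 or Scara3.

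Esco2 and Ccdc25, which share a short interval between their 5' ends, were uneven among the Gmppb-KO replicates. Esco2 (ENSMUSG00000022034, 65819038 to 65833994) had 3.32, 2.49 and 2.40 CPM in the wild-type libraries and 0.924, 7.22 and 17.5 CPM in the Gmppb-KO libraries. Its Gmppb-KO replicate 1 was below every wild-type library and its replicate 3 was 19.0 times replicate 1, so the groups overlapped. Ccdc25 (ENSMUSG00000022035, 65837302 to 65866607) had 5.70, 3.71 and 4.85 CPM in the wild-type libraries and 5.71, 9.51 and 22.1 CPM in the Gmppb-KO libraries. Gmppb-KO replicate 1 of Ccdc25 was level with wild-type replicate 1, at 105 against 96 counts, and replicate 3 was again the highest. The log2 fold changes were 1.64 ± 0.82 (SE) for Esco2 and 1.39 ± 0.50 (SE) for Ccdc25. Without Gmppb-KO replicate 3 they were 0.52 and 0.63, and limma voom gave 0.89 for Esco2.

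The replicate 3 values of these genes can be set beside the length trend in that library. Esco2 has an annotated length of 6648 bases and Ccdc25 of 4897 bases. In genes of 4.5 kb and over, the difference between Gmppb-KO replicate 3 and the mean of replicates 1 and 2 ran from -0.66 to 2.15 log2 units between the 5th and 95th percentiles. Esco2, at 2.68, lay above that range, with 0.657% of all tested genes as high, and Ccdc25, at 1.57, lay inside it. Scara5, with 6093 bases, was at 0.40, Pbk at 0.18, Scara3 at 0.04 and Elp3 at -0.24. The highest Gmppb-KO value was 1.42 times the lowest for Scara5, 1.29 times for Elp3 and 1.26 times for Pbk, so Scara5 was less even than these genes and far more even than Esco2. What part the length trend of replicate 3 has in the values of Esco2 and Ccdc25 was not tested.

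**Figure D1:**
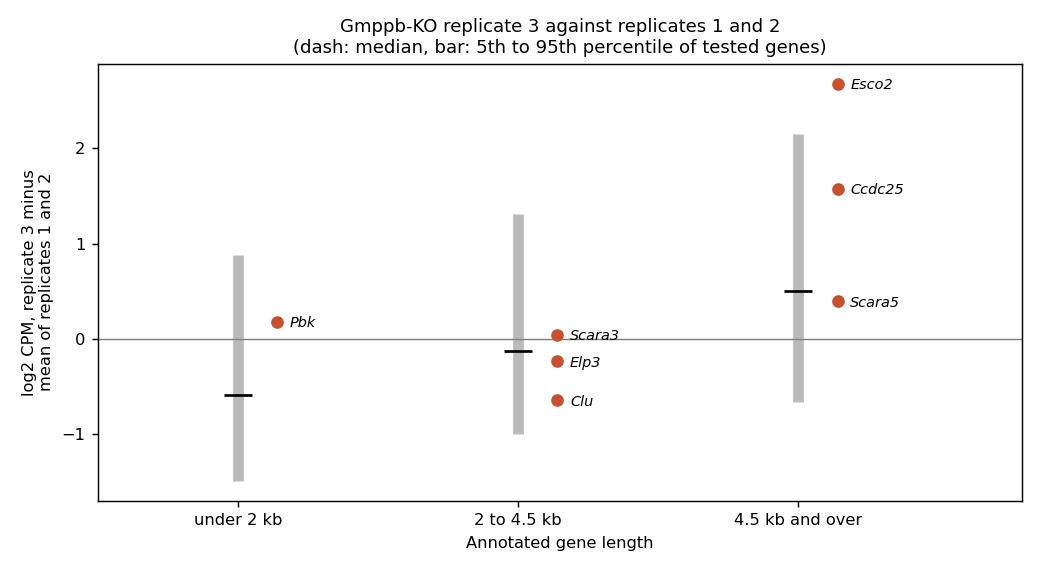
Difference in log2 CPM between Gmppb-KO replicate 3 and the mean of Gmppb-KO replicates 1 and 2 (vertical axis), for all tested genes in 3 classes of annotated length (horizontal axis; dash, median; bar, 5th to 95th percentile) and for the 7 tested genes of the neighbourhood (red points). Esco2, at 2.68, lies above the bar of its class, and Scara3 and Scara5 lie at 0.04 and 0.40.

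At the other end of the neighbourhood, Elp3, the catalytic subunit of the Elongator complex that modifies wobble uridines of transfer RNA, was abundant in both groups. Elp3 (ENSMUSG00000022031, 65530449 to 65593075) had 50.5, 51.9 and 69.7 CPM in the wild-type libraries and 88.3, 74.0 and 68.6 CPM in the Gmppb-KO libraries. The groups overlapped, and the log2 fold change was 0.42 ± 0.21 (SE). Nuggc, a nuclear GTPase known from germinal centre B cells and the nearest neighbour of Scara5, had 1, 0 and 0 counts in the wild-type libraries and 8, 0 and 8 counts in the Gmppb-KO libraries (ENSMUSG00000061356, 65598546 to 65648531). The Nuggc ratio of pooled counts was 15.3, with a counting interval from 2.37 to 641. With 0 counts in Gmppb-KO replicate 2, which allows up to 0.168 CPM, a rise of Nuggc was not detectable in every edited library at this depth.

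**Figure D2:**
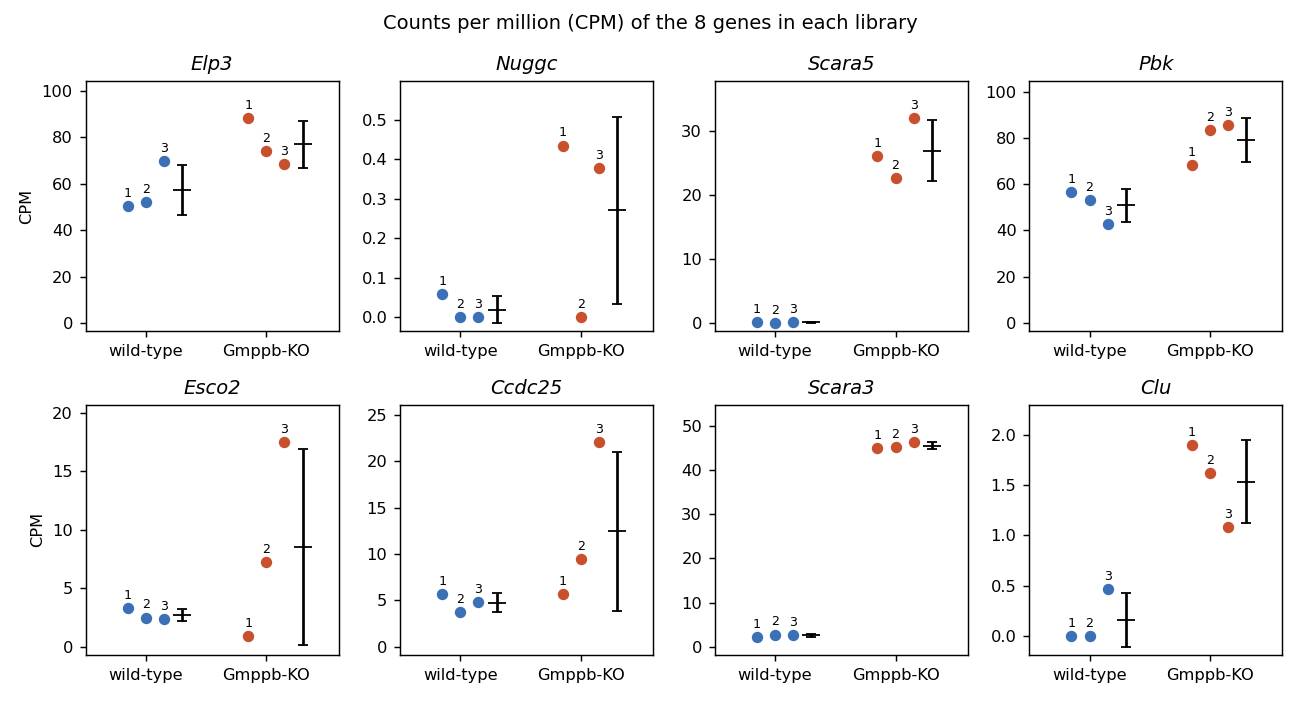
CPM of the 8 genes (1 panel each, in genomic order; vertical axes differ) in wild-type replicates 1 to 3 (blue) and Gmppb-KO replicates 1 to 3 (red), with the mean and SD of each group in black. Scara5 and Scara3 separate the groups, Scara3 with a narrow spread, Esco2 and Ccdc25 spread widely among Gmppb-KO replicates, and Elp3 overlaps between the groups.

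Compared per kilobase of annotated length, the 8 genes changed places between the groups only through the scavenger receptor genes. In wild-type libraries the levels were 28.4 ± 4.03 CPM per kb for Pbk, 19.1 ± 3.57 for Elp3, 0.970 ± 0.204 for Ccdc25, 0.709 ± 0.0859 for Scara3, 0.412 ± 0.0766 for Esco2, 0.0454 ± 0.0786 for Clu, 0.0161 ± 0.0148 for Scara5 and 0.00697 ± 0.0121 for Nuggc (SD, n = 3 each). In that order the ranges of Ccdc25 and Scara3 overlapped, as did those of Clu, Scara5 and Nuggc. In Gmppb-KO libraries Pbk (44.2 ± 5.34 CPM per kb) and Elp3 (25.6 ± 3.39) were again highest, followed by Scara3 (12.7 ± 0.220), Scara5 (4.42 ± 0.782), Ccdc25 (2.54 ± 1.76), Esco2 (1.29 ± 1.26), Clu (0.447 ± 0.121) and Nuggc (0.0954 ± 0.0832). Scara3 and Scara5 thus ranked above Ccdc25 in mean level in edited cells, although the ranges of Scara5 and Ccdc25, of Ccdc25 and Esco2 and of Esco2 and Clu overlapped.

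As a sum, Scara5 and Scara3 took 2.37, 2.76 and 2.81 CPM in the wild-type libraries and 71.2, 67.8 and 78.5 CPM in the Gmppb-KO libraries. The other 6 genes together took 116, 111 and 120 CPM and 165, 176 and 195 CPM in the same order, a ratio of means of 1.54 against 27.4 for the receptor genes. All 7 tested genes of the neighbourhood had a positive log2 fold change. A positive value was common elsewhere, with medians of 0.11 for all tested genes and 0.34 for those of chromosome 14. Of the 7, 2 passed the edgeR threshold in the higher direction, Scara5 and Scara3, where 2.32% of all tested genes did. In 5 of the 7 all Gmppb-KO values lay above all wild-type values, as in 13.1% of all tested genes, and in 5 the log2 fold change was at least 1, as in 9.85% of all tested genes. Nothing is read from these counts, since the same comparison led to the choice of the genes. The authors' deposited table gives log2 fold changes of 7.98 for Scara5, 4.10 for Scara3, 3.23 for Clu, 1.56 for Esco2, 1.32 for Ccdc25, 0.57 for Pbk, 0.36 for Elp3 and 3.56 for Nuggc.

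Among the flanking genes, which played no part in the choice, none of those tested was called higher. Within 1 Mb of either end of the neighbourhood the table lists 44 other named genes, of which 26 had 0 counts in all libraries and 11 were tested. By edgeR, 0 of the 11 were higher and 1 was lower at an adjusted p under 0.05, where 5.59% of all tested genes passed in either direction and 3.27% in the lower one. An unadjusted p under 0.05 was found for 3 of the 11, against 20.1% of all tested genes, and DESeq2 called 2, both lower. The groups did not overlap in 3 of the 11, against 26.1% of all tested genes. Their median log2 fold change was -0.01, with single values from -2.58 to 0.47. The gene that fell was Ptk2b, a focal adhesion kinase family member also known as Pyk2. It had 43.6, 39.9 and 52.5 CPM in the wild-type libraries and 12.9, 13.4 and 14.9 CPM in the Gmppb-KO libraries, a log2 fold change of -1.72 ± 0.21 (SE; edgeR adjusted p = 0.00294; lower in 3 of 3 libraries).

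On the side of Elp3, the nearest tested genes had log2 fold changes of 0.22 ± 0.39 for the zinc finger gene Zfp395, -2.58 ± 0.78 for the F-box gene Fbxo16, -0.49 ± 0.39 for the Wnt receptor gene Fzd3 and 0.04 ± 0.20 for Extl3, a glycosyltransferase of heparan sulphate synthesis (SE). Of these only Fbxo16 had groups that did not overlap, with 0.890, 1.69 and 1.23 CPM against 0.272, 0 and 0.330 CPM in Gmppb-KO libraries. Its edgeR adjusted p was 0.114, and DESeq2 and edgeR without a filter on low counts passed it (adjusted p = 0.0298 and 0.0294; range over the alternatives 0.0294 to 0.313). On the side of Clu, beyond Ptk2b, they were 0.47 ± 0.18 for Trim35, a tripartite motif gene, -0.10 ± 0.22 for Stmn4, a stathmin family gene, and -0.26 ± 0.25 for Dpysl2, a regulator of microtubules. Trim35 had no overlap between the groups (184 ± 11.97 and 255 ± 12.7 CPM, SD, n = 3 each) and an edgeR adjusted p of 0.194. Trim35 was thus similar to Pbk and Elp3 in the size of its difference, and was the highest of the tested flanking genes.

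**Figure D3:**
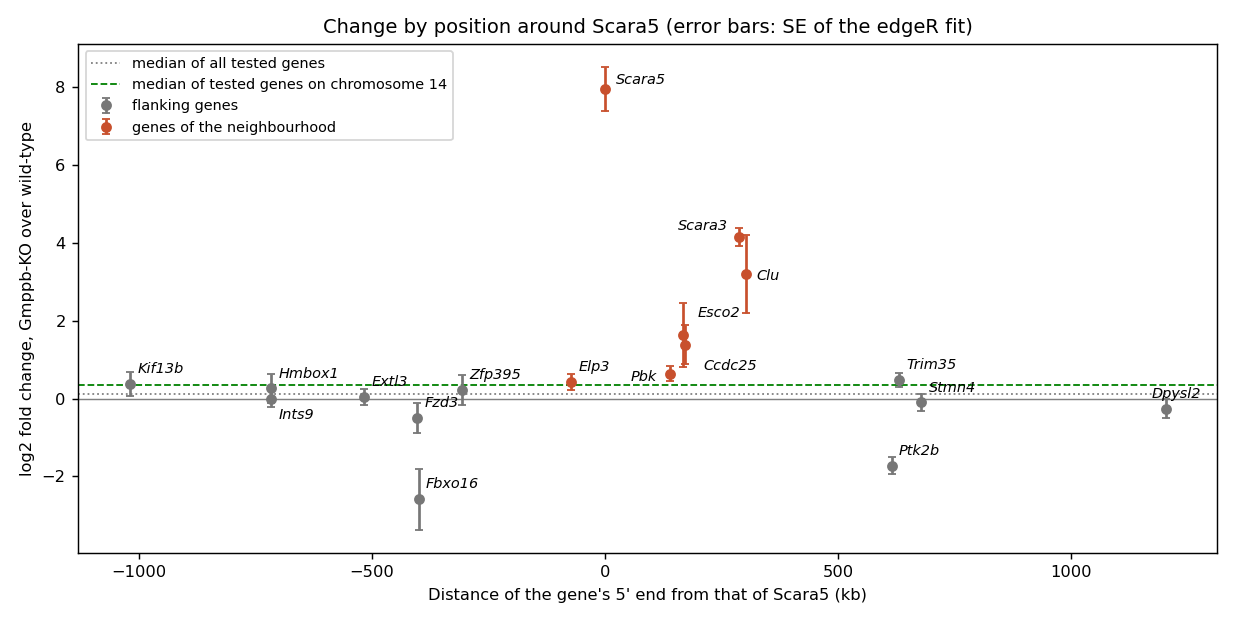
Log2 fold change of Gmppb-KO over wild-type (vertical axis, error bars are SE) against the distance of each gene's 5' end from that of Scara5 (horizontal axis, kb), for the 7 tested genes of the neighbourhood (red) and the 11 tested flanking genes (grey). Scara5 and Scara3 stand at 7.95 and 4.16 with Pbk at 0.64 between them, and the flanking genes lie between -2.58 and 0.47.

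At the scale of the chromosome, tested genes of chromosome 14 had a median log2 fold change of 0.34 (434 genes), against 0.11 for all tested genes. Chromosome 14 had the third highest median of 20 chromosomes, and the other 19 ran from -0.31 to 0.40. Relative to all genes, its median was higher by 0.19, 0.25 and 0.28 log2 units in the Gmppb-KO libraries. In bins of 10 Mb along the chromosome every median lay between 0.20 and 0.78, above the median of all tested genes. Bins held from 4 to 101 tested genes, and the lowest median was that of the bin with 101. Bins of other chromosomes were not compared. The flanks of the neighbourhood, with a median of -0.01, lay below every bin. Of the 434 genes, 16 were called higher (3.69%) and 17 lower (3.92%) by edgeR. Elp3, at 0.42, and Pbk, at 0.64, lay between the quartiles of chromosome 14 (-0.06 and 0.82), whereas Ccdc25, Esco2, Clu, Scara3 and Scara5 lay above the upper quartile.

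**Figure D4:**
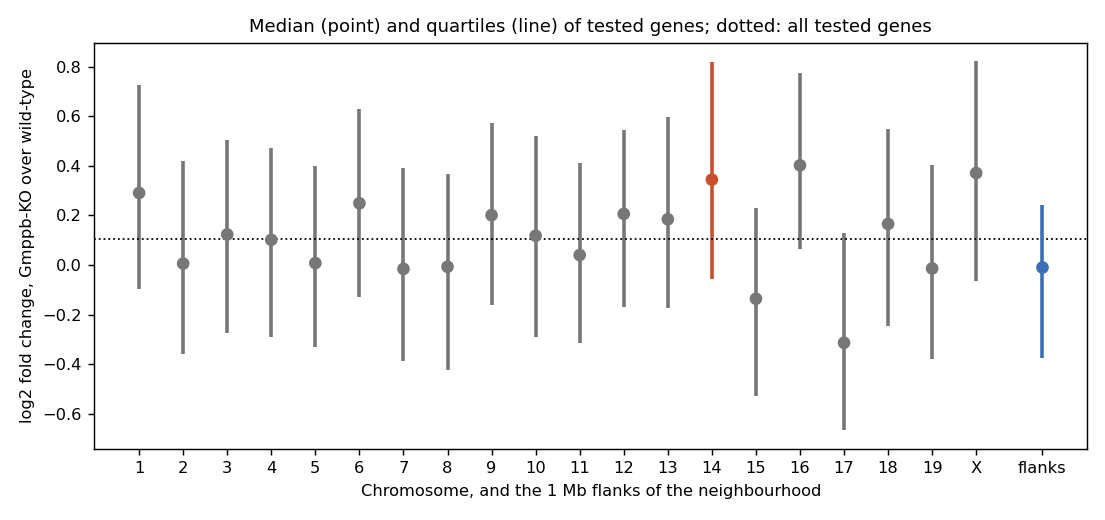
Median log2 fold change of Gmppb-KO over wild-type (points; lines are quartiles) of the tested genes on each chromosome and in the 1 Mb flanks of the neighbourhood, with the median of all tested genes as a dotted line. Chromosome 14 (red) has a median of 0.34 and the flanks (blue) a median of -0.01.

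Other genes with large positive fold changes also lay near one another. With Scara5 and Scara3 left out, 74 tested genes had a log2 fold change of at least 4. Of these, 18 (24.3%) had another such gene starting within 253 kb. Over all tested genes, the 74 included, 1.09% had such a gene within 253 kb. That distance is the one between the starts of Scara5 and Scara3, so their own closeness is no result. With them, the number was 20 of 76. These 20 genes made 12 adjacent pairs, 4 of them among the Oas genes of chromosome 5, which encode sensors of double-stranded RNA. Scara5 and Scara3 were the pair farthest apart, as the distance was set by them, and the pair with tested genes between its members; the other 11 pairs had 0 tested genes between them. The intervening Pbk, Ccdc25 and Esco2 had log2 fold changes from 0.64 to 1.64. The contrast with all tested genes was smaller for the 297 genes called higher by edgeR, Scara5 and Scara3 included. Another gene called higher started within 253 kb of 62 of them (20.9%), against 7.95% of all tested genes.

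Predicted and Riken loci left out, the genes most like Scara5 across the 6 libraries, by the mean absolute difference of log2 CPM centred on each gene's own mean, were Gdf6, a secreted factor of the bone morphogenetic protein family (0.44 log2 units), the interferon-induced Usp18 (0.49) and the secreted carbonic anhydrase gene Car6 (0.63). Gdf6 had 0 counts in all wild-type libraries and 8.15, 6.88 and 13.4 CPM in the Gmppb-KO libraries. Those most like Scara3 were Magea8, a melanoma antigen family gene (0.13), Oas1c (0.15) and Scml2, a Polycomb group gene (0.19). Magea8 had 1.07, 1.01 and 1.40 CPM without the edit and 21.4, 23.0 and 20.4 CPM in the Gmppb-KO libraries, close to Scara3 in ratio as well. Oas1c and Scml2 stayed under 2 CPM in every library, where the prior count of 2 narrows differences. Scara5 and Scara3 differed from each other by 1.49 log2 units on this measure, as the range of Scara5 is the wider.

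Among genes related by role to the neighbourhood, in 8 lists, edgeR called none higher. Of 77 tested, 3 of them on chromosome 14, edgeR called 0 higher and 2 lower, where 2.32% and 3.27% of all tested genes were called. DESeq2 called 8 of the 77, where it called 10.5% of all tested genes, and limma voom called 1, where it called 5.53%. The directions of the DESeq2 and limma voom calls are not given here, so the absence of higher calls is stated for the main edgeR fit only. Of the 17 other scavenger receptors 8 were tested, with log2 fold changes from -3.75 to 0.81 and a median of -0.17; 4 had an unadjusted p under 0.05, and DESeq2 called 4 and limma voom 1. The macrophage receptor gene Marco had 0 counts throughout. The gene called by edgeR was Cxcl16, which fell. It encodes a transmembrane chemokine that also binds oxidised lipoprotein, and went from 1.69 ± 0.839 to 0.112 ± 0.150 CPM (log2 fold change -3.75 ± 0.88, edgeR adjusted p = 0.0472). The class A receptor genes nearest in kind, named here for that reason and outside the naming rule, were Colec12, at 22.9 ± 3.31 CPM in wild-type libraries against 12.5 ± 4.81 CPM in Gmppb-KO (edgeR adjusted p = 0.188), and Msr1, with 2 and 4 counts over the groups. Scarf2, a scavenger receptor of class F named after its values were seen, had 95.3, 104 and 88.0 CPM in the wild-type libraries and 190.5, 177 and 138 CPM in the Gmppb-KO libraries; the groups did not overlap, and its log2 fold change of 0.81 ± 0.20 missed the threshold (edgeR adjusted p = 0.0537).

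Of the genes of ferritin and iron transport 13 were tested and 0 called by edgeR (1 at an unadjusted p under 0.05, 1 by DESeq2, 0 by limma voom). Ftl1, the ferritin light chain and a ligand of Scara5, was named for that role. It had 4607, 6442 and 2754 CPM in the wild-type libraries and 4652, 4814 and 2243 CPM in the Gmppb-KO libraries, with overlapping groups. The log2 fold change of the light chain was -0.24 ± 0.42 (SE). Fth1, the ferritin heavy chain and the gene of this list with an unadjusted p under 0.05, was named after its values were seen. It had 4712, 6076 and 3409 CPM in the wild-type libraries and 2598, 2576 and 1644 CPM in the Gmppb-KO libraries, without overlap, and a log2 fold change of -1.06 ± 0.34 (SE; edgeR adjusted p = 0.130). The 5 tested genes of clusterin receptors and apolipoproteins had 0 calls (2 at an unadjusted p under 0.05, 1 by DESeq2, 0 by limma voom).

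For the genes between the receptors, 16 mitotic genes had 0 calls by edgeR, DESeq2 or limma voom and 0 at an unadjusted p under 0.05, and their log2 fold changes ran from -0.34 to 0.85 with a median of 0.21. Pbk, at 0.64, lay within that range. The 16 genes of cohesin and sister chromatid cohesion had 0 edgeR calls (1 at an unadjusted p under 0.05, 1 by DESeq2, 0 by limma voom). In Gmppb-KO replicate 3 these cohesion genes exceeded the mean of replicates 1 and 2 by a median of 1.33 log2 units, against 0.51 for all genes of 4.5 kb and over. In 9 of the 16 (56.3%) Gmppb-KO replicate 1 was the lowest and replicate 3 the highest, as in Esco2. That order was found in 39.0% of tested genes of 4.5 kb and over and in 27.2% of all tested genes. In 4 of the 16 (25%) the order was the reverse, against 14.3% and 23.0% in the same 2 sets. Among these 4 was Cdca5, which encodes the cohesin protector sororin and is shorter, at 2129 bases. It had 46.5, 43.4 and 29.5 CPM in the Gmppb-KO libraries. Smc3, the substrate of Esco2 and outside the naming rule, had 14.2, 12.9 and 15.9 CPM in the wild-type libraries and 7.50, 23.4 and 76.6 CPM in the Gmppb-KO libraries. Esco1, the paralogue of Esco2 and likewise outside the rule, had 2.17, 7.67 and 16.9 CPM in the same Gmppb-KO libraries. Both were named for their roles and followed the order of Esco2, while the list as a whole did not.

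The 12 Elongator and wobble uridine genes had 0 calls by edgeR, DESeq2 or limma voom and 0 at an unadjusted p under 0.05, with a median log2 fold change of -0.11. Among 6 genes of integrin-linked kinase and its partners, on which Ccdc25 is described to act in human cells, Parvb, which encodes beta-parvin, fell from 269 ± 35.4 to 149 ± 21.6 CPM (log2 fold change -0.86 ± 0.20, edgeR adjusted p = 0.0499). Of 7 B cell and germinal centre genes, the setting of Nuggc, 1 was tested; edgeR, DESeq2 and limma voom each made 0 calls there and its unadjusted p was not under 0.05, and Cd79b and Ms4a1 had 0 counts in all libraries. The calls of Cxcl16 and Parvb were near the threshold: without wild-type replicate 1, wild-type replicate 2, Gmppb-KO replicate 1 or Gmppb-KO replicate 2 the lists held 0 called genes, without wild-type replicate 3 they held 3 and without Gmppb-KO replicate 3 they held 4.

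Markers of other cell types moved beside Scara5 and Scara3. Of 12 fibroblast markers 7 were tested and edgeR called 4 higher, where it called 2.32% of all tested genes higher. These were the matrix genes Mfap5, Col1a1, Postn and Dcn. Their log2 fold changes were 4.12 ± 0.32, 3.26 ± 0.29, 4.89 ± 0.59 and 2.35 ± 0.39 (SE, edgeR adjusted p = 0.000371, 0.000577, 0.00268 and 0.0102). Not called were Ly6a (0.83 ± 0.24), Cd34 (0.07 ± 0.19) and Pdgfra, which was lower (-0.65 ± 0.50). The untested Pi16 had 16 counts in wild-type and 8 in Gmppb-KO libraries. The fibroblast list summed to between 611 and 680 CPM in wild-type and between 2168 and 2708 CPM in Gmppb-KO libraries. Most of this sum came from Col1a1 and Ly6a, while Lum and Dpp4 were at 0 counts throughout. Of 6 adipocyte markers 4 were tested and edgeR called 2 higher, Lpl and Fabp4, and DESeq2 made 3 calls. Cebpa of the same list, outside the naming rule, went from 25.8 ± 5.19 to 13.7 ± 1.38 CPM without overlap (log2 fold change -0.91 ± 0.25, edgeR adjusted p = 0.0783). The list summed to between 37.7 and 49.1 CPM in wild-type and between 50.3 and 89.4 CPM in Gmppb-KO libraries, with Adipoq and Plin1 at 0. Myoblast markers summed to between 4506 and 6219 CPM in wild-type and between 2486 and 4415 CPM in Gmppb-KO libraries. Most of this sum was Des, with means of 4246 and 3166 CPM and overlapping groups, so it says little of the called myoblast markers. Of 5 epithelial markers Krt14 was called higher by edgeR and not by limma voom, with Epcam and Krt18 at 0. The untested Cdh1 and Krt8 went the other way, with 29 and 20 counts in wild-type and 0 in Gmppb-KO libraries. Of 5 Schwann cell markers Ngfr was lower, with Sox10 at 0. Leukocyte markers summed to between 22.4 and 35.4 CPM in wild-type and between 21.1 and 33.2 CPM in Gmppb-KO libraries. Nearly all of this was Cd14 (means of 27.4 and 25.8 CPM), with Adgre1, Itgam and Cd3e at 0. Endothelial and mural markers summed to between 25.01 and 29.4 CPM and between 27.0 and 36.3 CPM. Nearly all of that was Cspg4 (means of 26.9 and 31.1 CPM), with Pecam1, Cdh5 and Rgs5 at 0. What part the fibroblast or other marker genes have in the values of Scara5 and Scara3 was not tested.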

How the data were processed

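RNA of 3 wild-type and 3 Gmppb-KO libraries was measured. Whole-number read counts per gene, not normalized, were deposited by the authors in 1 table; among tools, the submitters' processing notes list HISAT2, featureCounts of Subread, FastQC and DESeq2, with mm10 as build. No annotation release or strand setting was given in the sources used here. Gene coordinates in the table equal those of GENCODE M21 for all 8 genes. The authors' deposited log2 fold changes were used once, and the deposited gene length for levels per kilobase. The 201 loci without a gene name held 0.0699% to 0.195% of counts and were left out.

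For all named genes, edgeR (4.0.16, under R 4.3.3) fitted group as the only term to the counts after filterByExpr and TMM scaling, with the quasi-likelihood F test (2-sided), and Benjamini-Hochberg adjustment over 12786 genes and a threshold of 0.05. The SE comes from the F statistic. Changes are relative to this scaling, under which the median gene moved by 0.11 (log2). The same steps were tested on simulated data. Log2 CPM used a prior count of 2. Alternatives were DESeq2 1.42.0, limma 3.58.1 voom, other scalings and filters, a replicate block, other flank widths and leaving out each library.

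The genes, lists, tests and alternatives were chosen with earlier results of these data known. Named are the 8 genes, Gmppb, the called flanking genes and the 4 nearest tested ones on each side, in each list the called genes with the smallest adjusted p (at most 4), and the 3 genes most like Scara5 and Scara3. Same-numbered libraries deviated together for replicates 2 and 3 and not for replicate 1 (correlations of 0.508, 0.420 and -0.179). These values do not settle whether the numbers are pairs. The main fit did not take them as pairs and called 715 genes, against 1618 with a replicate block. Intervals and limits for 0 counts cover counting error only. The values of some listed genes are not reported here.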

Additional observations from a re-analysis of the deposited data

How the results depend on the processing

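Across DESeq2, limma voom, 2 other scalings, 2 other filters and a replicate block, the log2 fold change of Scara5 ran from 7.88 to 8.12 and that of Scara3 from 4.08 to 4.33, the latter with total counts only. Esco2 ran from 0.89 with limma voom to 1.91, Ccdc25 from 1.20 to 1.61, Clu from 3.14 to 4.25 with limma voom, Pbk from 0.56 to 0.82 and Elp3 from 0.35 to 0.56. Leaving out each library gave 7.41 to 8.60 for Scara5, 4.06 to 4.18 for Scara3, 0.23 to 0.51 for Elp3, 0.45 to 0.72 for Pbk, 0.52 to 2.08 for Esco2, 0.63 to 1.64 for Ccdc25 and 2.63 to 7.76 for Clu, where the highest value rests on wild-type libraries with 0 counts and is no fold. None of these values changed sign. The flanking genes called numbered 2 by DESeq2 and 2 without a filter on low counts, and 1 in the other settings, including each left-out library, flanks of 0.5 Mb and flanks of 2 Mb. The related genes called numbered 8 by DESeq2, 8 with a replicate block and 6 without a filter on low counts, against 1 with RLE size factors, total counts only, the stricter filter or limma voom, and 0 to 4 when a library was left out. All called genes numbered 1343 by DESeq2, 1419 without a filter and 1618 with a replicate block, and 331 to 749 when a library was left out. With the replicate block Scara5 was at 7.99 and Scara3 at 4.16. The numbers were not taken as pairs in the main fit, although 2 of 3 wild-type libraries correlated best with their own number. The causes of these shifts were not tested. Depth limits Nuggc and the wild-type values of Scara5 and Clu, which rest on 1, 5 and 8 counts.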
